A study of Mus musculus with 8 samples.

Results

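The amino acid transporter genes of the Slc1, Slc3, Slc7, Slc36, Slc38 and Slc43 families were examined in mouse tendon stem cells (TSCs). Members were taken by gene symbol, as all genes whose symbol starts with Slc1a, Slc3a, Slc7a, Slc36a, Slc38a or Slc43a and a digit, which gave 42 of the 19301 genes listed. One of them, Slc7a6os, matched by its name alone, since it is the gene on the strand opposite Slc7a6 and encodes no transporter. It is counted among the 42, and the counts without it are given beside the main ones. The TSCs were primary cells grown out of collagenase-digested patellar tendon of C57BL/6J mice in low glucose DMEM with fetal bovine serum. For RNA-seq they were cultured for 4 days either in low glucose medium with DMSO (LG, 5.5 mM glucose, n = 4) or in high fat, high glucose medium with 300 µM of the saturated fatty acid palmitic acid (HFHG, n = 4), a culture model of the blood sugar and lipids of diabetes. Glucose and palmitic acid were raised together in HFHG, so their effects cannot be told apart. Neither the age or sex of the mice nor how the biological replicates relate to animals was given in the sources used here.

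Amino acids do not cross membranes freely, and solute carriers decide which of them enter the cell. Many work as exchangers, so that one carrier loads the cell with an amino acid that another carrier then trades for an essential one. Many of the Slc7 proteins need a heavy chain to reach the cell surface, where the pair takes up leucine, cystine or cationic amino acids. Several carriers sit instead on the lysosome, where they release amino acids to the cytosol and take part in the signal that turns on mTORC1, the growth kinase complex. In tendon cells, which secrete collagen, glycine, proline and lysine are needed in large amounts.

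Expression was given as FPKM (fragments on a gene, scaled to its length and to the mapped fragments of the library), and 34308108 to 37362725 reads per library stood behind the values. LG replicate 4 lay apart from the other LG libraries, and the spread between it and each of them was 8.18 to 12.0 times the counting variance, against 3.45 to 4.004 times among the other LG libraries. The label of the cells was checked against markers. The tendon transcription factors Scx (1.53 to 2.88 FPKM in HFHG, 0.983 to 1.76 in LG) and Mkx (6.05 to 7.35 and 7.77 to 9.30) were detected in every library. Markers of macrophages were also detected, at levels far apart. Lyz2 was at 1615 to 1662 FPKM in HFHG and 1736 to 1811 in LG. Adgre1 was at 25.3 to 27.9 and 36.7 to 39.3, and Ptprc at 1.71 to 2.14 and 2.05 to 2.44. Markers of both kinds of cells were thus present.

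More of the amino acid transporters were lower in HFHG than were higher. Among the tested members, the largest decreases were in the carriers of cystine, serine and arginine and in the heavy chain of the Slc7 exchangers, and the largest increases were in Slc1a6, a glutamate carrier, and Slc43a2, a facilitator of leucine. Of the 42 members, 23 were tested because they reached 0.5 FPKM in 4 or more libraries, and each of these was above 0.5 FPKM in all 8. With limma and Benjamini-Hochberg adjustment over all tested genes, 14 of the 23 (60.9%) were lower in HFHG at an adjusted p-value below 0.05, where 30.8% of all 11710 tested genes were. Another 6 (26.1%) were higher, against 34.0% of all tested genes, and 3 did not pass, while 64.8% of all tested genes were called in either direction. Without Slc7a6os, 14 of the 22 transporters (63.6%) were lower and 5 (22.7%) were higher. The 14 include Slc43a3, which carries purine nucleobases rather than amino acids. The median log2 fold change (HFHG over LG) was -0.27 over the 23 members and 0.02 over all tested genes. The groups did not overlap in 18 of the 23 members (78.3%), against 59.2% of all tested genes. By the threshold of the study's methods, a change of over 2-fold and a limma p-value under 0.05 without adjustment, 2 members (8.7%) were downregulated, against 1.65% of all tested genes, and 0 were upregulated, against 3.68%. These 2 were Slc7a11 and Slc3a2, which encode the chains of one and the same transporter, and they ranked 44 and 86 from the most lowered of the 11710 genes. Without LG replicate 4 the counts were 13 lower, 6 higher and 2 downregulated.

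Most markers of macrophages and other leukocytes moved the same way as most of the transporters. Of 9 such markers tested, 7 were lower in HFHG and 1 was higher, their summed level was 1753 to 1802 FPKM in HFHG and 1913 to 2001 in LG, and C1qa fell from 33.9 to 39.8 FPKM in LG to 18.1 to 19.1 in HFHG, while Cd163 was under 0.5 FPKM in every library. Most tendon and fibroblast markers moved the other way, with 10 of 12 higher in HFHG and 1, Mkx, lower. Their summed level was 2405 to 2453 FPKM in HFHG against 1617 to 1637 in LG. The part of these cell markers in the transporter result was not tested. In bulk RNA, fewer cells of a type and less of an RNA per cell cannot be told apart.

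**Figure D1:**
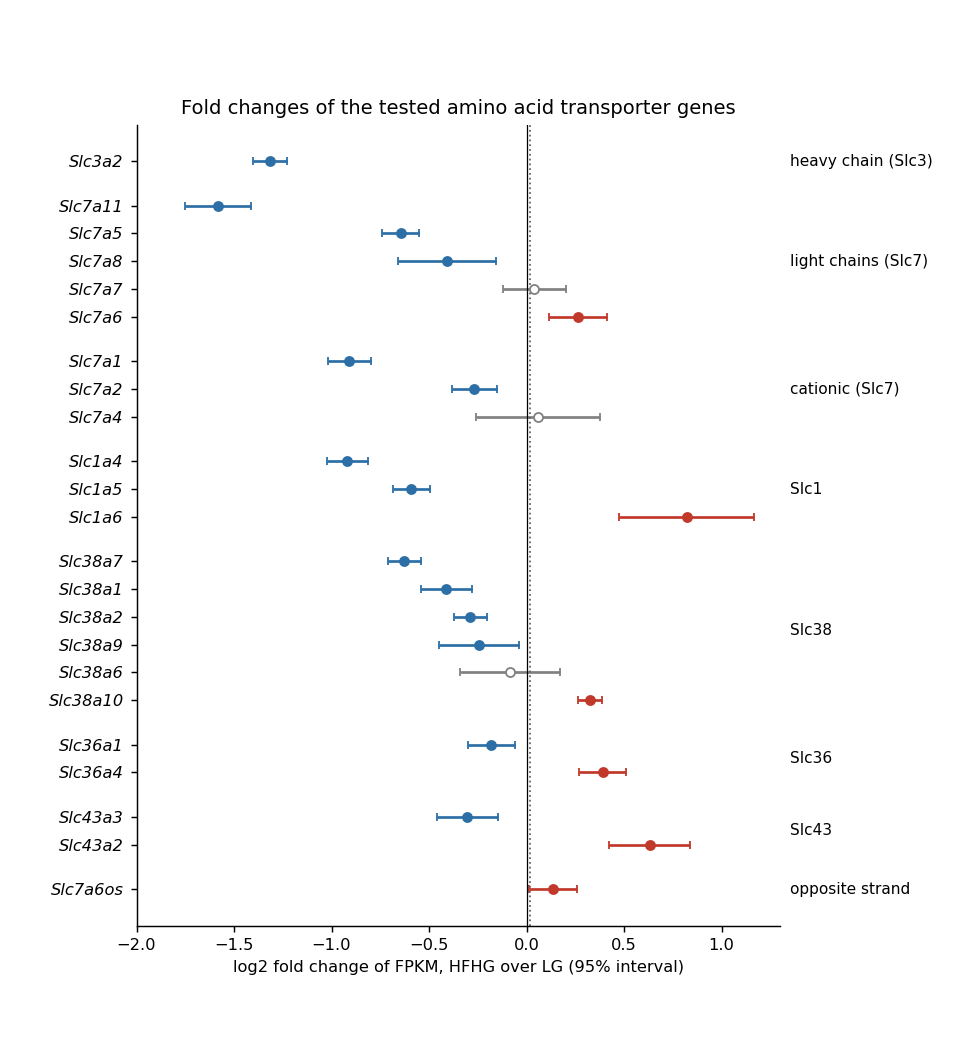
Log2 fold change of FPKM (HFHG over LG, x axis) of each of the 23 tested members, grouped by role, with the 95% interval of the limma fit as bars. Blue points were lower and red points higher at an adjusted p-value below 0.05, open grey points did not pass, and the dotted line is the median of all tested genes (0.02). Slc7a11 (-1.58) and Slc3a2 (-1.31) lie farthest to the left, and Slc1a6 (0.82) farthest to the right.

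Slc3a2 encodes 4F2hc (CD98), the heavy chain that carries several Slc7 light chains to the plasma membrane (chr19:8706882-8723369, minus strand, mm10). Its FPKM was 14.6, 13.4, 13.8 and 13.4 in the 4 HFHG libraries and 34.5, 33.3, 33.7 and 36.1 in the 4 LG libraries. All HFHG libraries were lower than all LG libraries by far more than the spread within either group. The mean fell to 40.1% of LG (13.8 ± 0.569 against 34.4 ± 1.26, SD, n = 4), a log2 fold change of -1.31 (SE 0.0400, limma adjusted p = 2.52e-11). The FPKM of Slc3a2 was made with a gene length of 9850 bases, 3.50 times its longest GENCODE transcript. This length also exceeds the 3529 bases of all its GENCODE exons together, so reads outside them may have been counted. If all reads lay on the longest transcript, its level would be 48.3 FPKM in HFHG and 121 in LG. Its rank among the transporters thus depends on the length used, while its fold change does not. Whether reads from outside the exons altered the fold change was not tested. The other heavy chain, Slc3a1, which pairs with the kidney light chain Slc7a9, was between 0.0121 and 0.427 FPKM in all libraries.

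Slc7a11 encodes xCT, the light chain that brings in cystine in exchange for glutamate and so supplies the cysteine of glutathione (chr3:49892526-50443614, minus strand). It stood at 3.56, 3.28, 3.39 and 3.49 FPKM in HFHG and at 10.3, 12.0, 10.8 and 8.98 in LG. Even the lowest LG library, replicate 4, was more than 2 times the highest HFHG library. This was the largest decrease among the tested members, to 32.6% of LG, with a log2 fold change of -1.58 (SE 0.0770, limma adjusted p = 2.07e-09), and of -1.65 without LG replicate 4.

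The Slc7a11 promoter is known for a pair of C/EBP-ATF response elements, to which ATF4, the transcription factor of the amino acid response, binds. The 100 bases before its RefSeq start (GRCm38.p6, chr3:50443614-50443713, minus strand) are shown with both matches to the element in capitals.
Slc7a11: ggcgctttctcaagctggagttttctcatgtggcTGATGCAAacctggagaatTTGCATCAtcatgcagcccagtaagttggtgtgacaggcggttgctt
The element was searched as TGATGNAA on both strands of the 250 bases before each start, and 3.45% of 32851 RefSeq promoters held it. Of the 32 members with a promoter in that collection, only Slc7a11 and Slc7a7 held it, as did 3.91% of all genes with a promoter. Both are among the 17 tested members with a promoter, and 2.44% of the tested genes with one held it. Slc7a7 did not pass the test between the groups. The antioxidant response element, searched as TGACNNNGC, was found before 4 of the 32 members, Slc38a2, Slc43a1, Slc7a1 and Slc7a6. It was found before 11.5% of all genes with a promoter. Of the 17 tested members with a promoter 3 held it, against 14.1% of the tested genes with one. Bases after the start were not searched, and the lowered genes Slc7a5, Slc1a5 and Slc38a1 were among the members without a promoter in the collection. These matches describe letters and not bound sites.

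**Figure D2:**
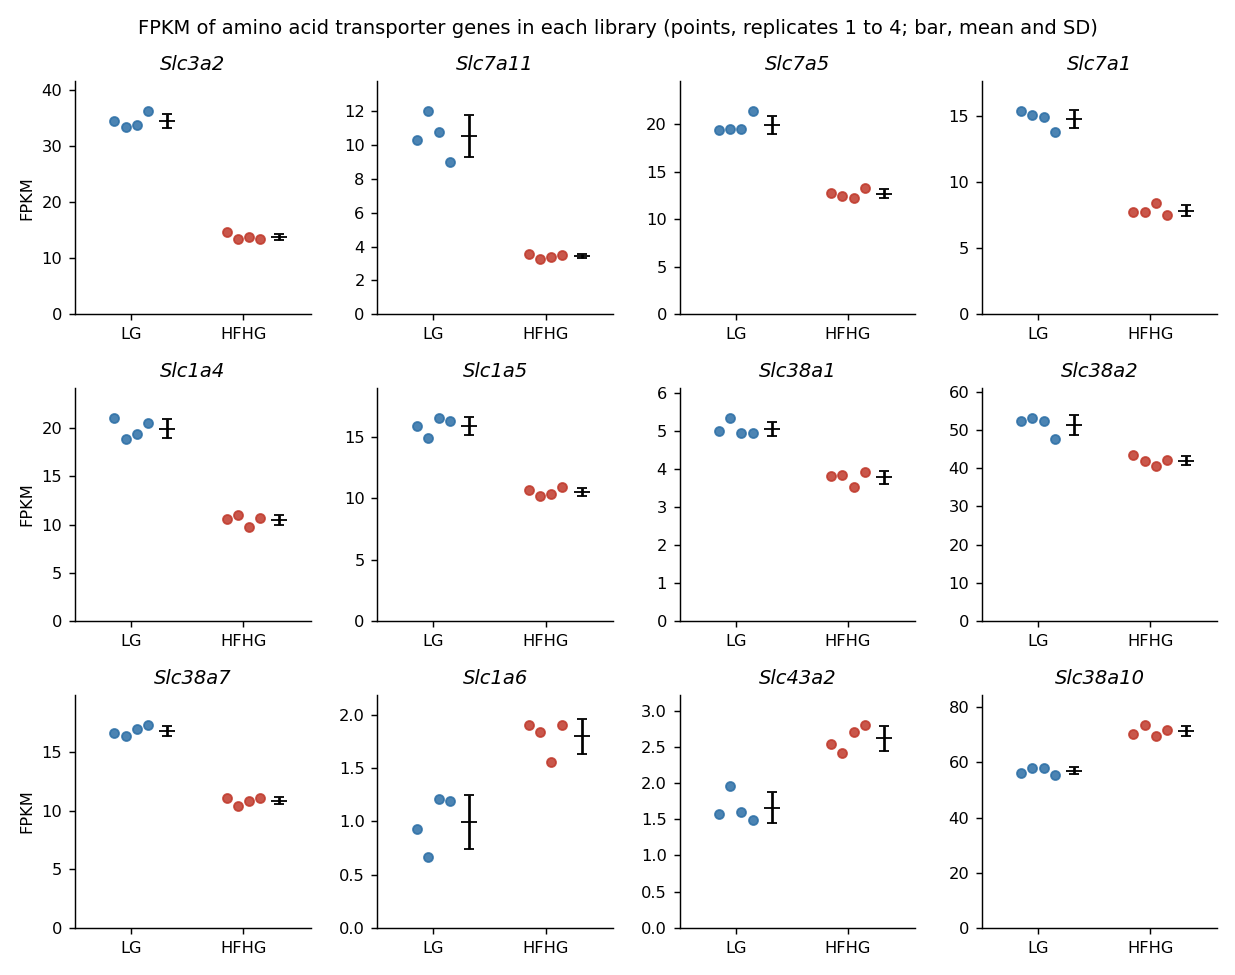
FPKM (y axis, from 0) of 12 members in each LG (blue) and HFHG (red) library, with the mean and SD of each group as bars (n = 4). The 9 lowered genes have no HFHG point at or above an LG point, and the 3 raised genes, Slc1a6, Slc43a2 and Slc38a10, show the opposite with no overlap either. Groups without overlap were found for 59.2% of all tested genes.

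Slc7a5 encodes LAT1, which exchanges intracellular glutamine for leucine and other large neutral amino acids (chr8:121881150-121907694, minus strand). Its FPKM was 12.8, 12.5, 12.3 and 13.3 in HFHG and 19.4, 19.5, 19.5 and 21.3 in LG. The groups did not overlap, and LG replicate 4 was the highest. The mean fell to 63.7% of LG (12.7 ± 0.439 against 19.9 ± 0.936), with a log2 fold change of -0.65 (limma adjusted p = 4.03e-08). The fall of Slc7a5 was smaller than that of Slc7a11, and their 95% intervals, -0.74 to -0.55 and -1.75 to -1.41, were apart.

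The other tested light chains lay between 0.564 and 3.79 FPKM. Slc7a8, which encodes LAT2, a carrier of small and large neutral amino acids, was 0.564 to 0.733 FPKM in HFHG and 0.872 to 0.958 in LG (log2 fold change -0.41, limma adjusted p = 0.00788). At this low level the fold change depends on the pseudocount, and with a pseudocount of 1 it was -0.20. Slc7a6, which encodes y+LAT2, an exporter of arginine in exchange for neutral amino acids, was higher in HFHG (2.75 ± 0.0545 against 2.27 ± 0.101, log2 fold change 0.26, limma adjusted p = 0.00433), but not after quantile normalization (0.16, adjusted p = 0.0548). The related y+LAT1 gene, Slc7a7, was 3.41 ± 0.292 in HFHG and 3.31 ± 0.165 in LG, with an interval of its log2 fold change from -0.12 to 0.20, and its groups overlapped. Whether counting used strand was not stated, and several members share bases with a gene on the opposite strand. These overlaps were taken over whole gene spans, introns included, so the exon bases shared may be fewer. Slc7a7 shares 232 bases with Oxa1l, Slc7a5 lies within Gm20388 (26545 bases), Slc38a9 shares 16558 bases with Gm47827, Slc7a11 shares 8812 with Gm37854, and Slc7a2 shares 3252 with Gm26584.

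Because the light chains share one heavy chain, their FPKM was also summed. The 5 tested light chains added up to 23.0 ± 0.582 FPKM in HFHG and 37.0 ± 0.891 in LG. Slc7a11 made up 14.3 to 15.6% of this sum in HFHG and 24.4 to 31.4% in LG, while Slc7a5 made up 54.5 to 55.9% and 51.1 to 58.0%. The share of Slc7a6 was 12.0% in HFHG and 6.16% in LG on average, and that of Slc7a7 was 14.9% and 8.95%. Shares depend on the gene lengths. If all reads of each gene lay on its longest GENCODE transcript, those of Slc7a11 would be 10.9% and 23.7%. Those of Slc7a6 would be 29.7% and 17.4%. With either set of lengths, the Slc7a11 share was lower in HFHG and the Slc7a6 share was higher.

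**Figure D3:**
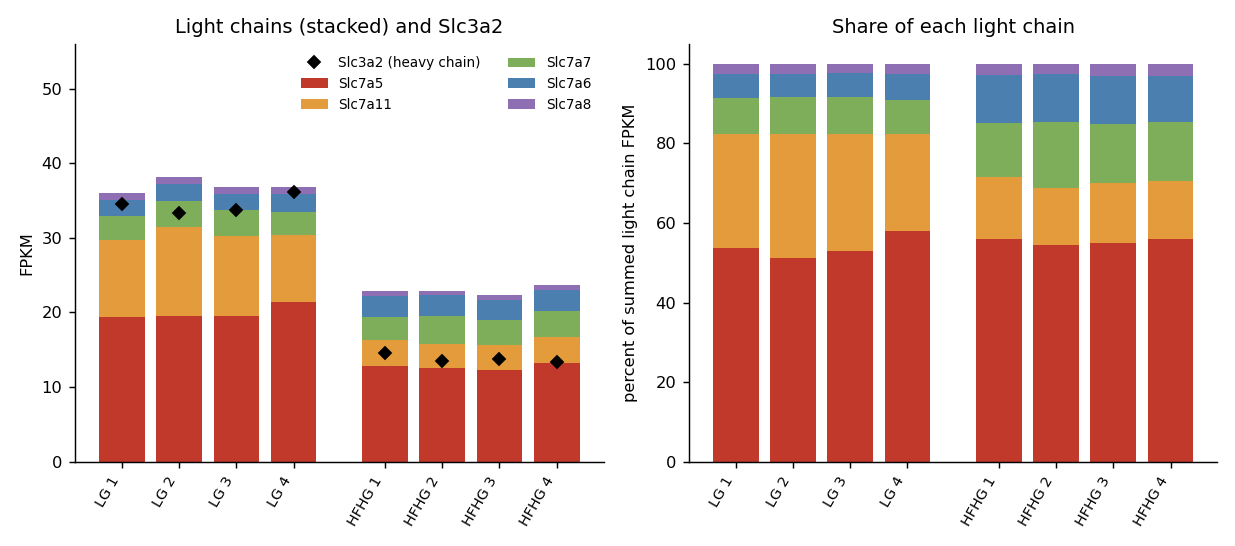
Left, FPKM of the 5 tested light chains stacked for each library, with the FPKM of the heavy chain Slc3a2 as a diamond. The height of the diamond against the bars depends on the gene lengths used, which for Slc3a2 was 3.50 times its longest GENCODE transcript. Right, the percent of the summed light chain FPKM taken by each light chain, where the orange Slc7a11 part covers 24.4 to 31.4% of the LG bars and 14.3 to 15.6% of the HFHG bars.

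The cationic amino acid transporters carry arginine, lysine and ornithine without a heavy chain. Slc7a1, which encodes CAT1, the general uptake carrier of arginine (chr5:148327410-148399904, minus strand), was 7.70, 7.70, 8.43 and 7.47 FPKM in HFHG and 15.3, 15.1, 14.9 and 13.8 in LG. The groups were apart, and the mean in HFHG was 53.0% of LG (log2 fold change -0.91, SE 0.0506, limma adjusted p = 7.38e-09). Slc7a2, which encodes CAT2, the arginine carrier known for its induction in activated macrophages, fell less, from 9.45 ± 0.551 to 7.82 ± 0.285 FPKM (log2 fold change -0.27, limma adjusted p = 6.81e-04). Slc7a4, an orphan relative, was 0.549 to 0.831 FPKM over all libraries, from at least 59 to 89 reads each. Its log2 fold change had an interval from -0.26 to 0.38. Over whole gene spans, introns included, Slc7a4 overlaps P2rx6 on the opposite strand by 5783 bases.

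Of the Slc1 family, both neutral amino acid exchangers were lower in HFHG and the glutamate carrier Slc1a6 was higher. Slc1a4 encodes ASCT1, an exchanger of serine, alanine, cysteine and threonine (chr11:20302180-20332713, minus strand). It was 10.6, 11.03, 9.76 and 10.7 FPKM in HFHG and 21.0, 18.9, 19.5 and 20.5 in LG. The HFHG mean was 52.7% of LG (log2 fold change -0.92, SE 0.0487, limma adjusted p = 4.59e-09).

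Slc1a5 encodes ASCT2, which takes up glutamine in exchange for other neutral amino acids (chr7:16781340-16798274, plus strand). Its FPKM was 10.7, 10.2, 10.3 and 10.9 in HFHG and 15.9, 14.9, 16.5 and 16.3 in LG. No HFHG library reached the lowest LG library, and the log2 fold change was -0.59 (limma adjusted p = 1.13e-07). Slc1a6 encodes EAAT4, a high-affinity glutamate carrier best known from Purkinje cells of the cerebellum (chr10:78780496-78814765, plus strand). It was low, at 1.90, 1.84, 1.56 and 1.90 FPKM in HFHG and 0.924, 0.665, 1.21 and 1.19 in LG. Every HFHG library was above every LG library, with a log2 fold change of 0.82 (SE 0.159, limma adjusted p = 5.77e-04), or of 0.50 with a pseudocount of 1. Its FPKM was made with a length 2.94 times that of its longest GENCODE transcript.

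The Slc38 family, the sodium-coupled neutral amino acid transporters, held the members with the highest FPKM at the gene lengths used. Its summed level was 131 ± 2.49 FPKM in HFHG and 133 ± 3.43 in LG. Most of this sum came from Slc38a10 and Slc38a2, which moved in opposite directions. Of the 6 tested genes, 4 (66.7%) were lower, against 30.8% of all tested genes. Another 1 (16.7%) was higher, against 34.0%, and 1 did not pass. Slc38a2 encodes SNAT2, the carrier that loads cells with glutamine and alanine and is known to be induced when amino acids are short (chr15:96687392-96699730, minus strand). It was 43.4, 41.8, 40.5 and 42.1 FPKM in HFHG and 52.2, 53.0, 52.4 and 47.5 in LG. The groups did not overlap, LG replicate 4 came nearest to HFHG, and the mean in HFHG was 81.8% of LG (log2 fold change -0.29, limma adjusted p = 2.62e-05). Slc38a1, which encodes the related SNAT1 (chr15:96571418-96642913, minus strand), was 3.81, 3.83, 3.51 and 3.93 FPKM in HFHG and 4.98, 5.33, 4.94 and 4.94 in LG. Its HFHG libraries were all lower (log2 fold change -0.41, limma adjusted p = 5.38e-05).

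Slc38a7 encodes SNAT7, which exports glutamine from the lysosome (chr8:95835920-95853539, minus strand). It was 11.1, 10.4, 10.8 and 11.1 FPKM in HFHG and 16.6, 16.3, 16.9 and 17.3 in LG. No HFHG library came near an LG library, and the mean fell to 64.6% of LG (log2 fold change -0.63, limma adjusted p = 1.90e-08). The 95% interval of this fall, -0.71 to -0.54, lay apart from that of Slc38a2, -0.37 to -0.20. Slc38a9, the lysosomal arginine sensor of mTORC1, was 1.26 ± 0.0977 FPKM in HFHG and 1.502 ± 0.0926 in LG (log2 fold change -0.24, limma adjusted p = 0.0394). Its fold change was -0.15 with a pseudocount of 1 and -0.37 after quantile normalization. The call was kept in 10 of 18 alternatives. Among the losses were those without LG replicate 4 (limma adjusted p = 0.0767) and without each of 4 other libraries in turn (limma adjusted p = 0.0551 to 0.113). Slc38a10, a family member found in intracellular membranes, rose from 56.9 ± 1.24 FPKM in LG to 71.3 ± 1.75 in HFHG (log2 fold change 0.32, limma adjusted p = 4.68e-07). At the gene lengths used it had the highest FPKM of all members in both groups. If all reads lay on the longest transcripts, Slc3a2 would be higher than Slc38a10 in LG (121 against 68.2 FPKM). Slc38a6, whose substrates are less well known, was 1.51 to 2.01 FPKM in HFHG and 1.65 to 2.34 in LG and did not pass (interval -0.34 to 0.17).

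Of the proton-coupled Slc36 carriers, 1 was lower and 1 was higher. Slc36a1, which encodes PAT1, a carrier of small amino acids on the lysosome and the cell surface, was 8.18 ± 0.410 FPKM in HFHG and 9.29 ± 0.543 in LG (log2 fold change -0.18, limma adjusted p = 0.0123). LG replicate 4, at 8.51, lay below the highest HFHG library, at 8.54, so the groups overlapped, and the call was lost when the libraries were rescaled to the same sum (adjusted p = 0.1003). Slc36a4, which encodes PAT4, a high-affinity carrier of proline and tryptophan, was higher in HFHG (7.46 ± 0.281 against 5.67 ± 0.329, log2 fold change 0.39, limma adjusted p = 5.02e-05).

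The E-box CACGTG, bound by MYC and by the lysosomal transcription factors TFEB and TFE3, was found in the 250 bases before the start of 3 of the 17 tested members with a promoter, Slc38a7, Slc36a1 and Slc1a6, and of 938 of the 9376 tested genes with one. Slc1a7, Slc38a5, Slc43a1 and Slc7a14, which were under the filter, also held it, as did 6.86% of all genes with a RefSeq promoter. The 100 bases before these starts are shown because 2 of the genes serve the lysosome, with the E-box in capitals (GRCm38.p6, chr8:95853492-95853591 on the minus strand, chr11:55204240-55204339 on the plus strand and chr10:78780396-78780495 on the plus strand).
Slc38a7: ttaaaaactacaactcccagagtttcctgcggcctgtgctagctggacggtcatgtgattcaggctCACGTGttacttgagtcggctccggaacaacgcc
Slc36a1: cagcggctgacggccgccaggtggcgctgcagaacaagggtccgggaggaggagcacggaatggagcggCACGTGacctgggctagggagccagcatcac
Slc1a6: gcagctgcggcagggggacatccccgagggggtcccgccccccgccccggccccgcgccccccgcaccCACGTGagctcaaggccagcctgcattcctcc
The first base of the E-box lay 34, 31 and 32 bases before the start. Slc38a7 and Slc36a1 were lower in HFHG and Slc1a6 was higher.

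Of the Slc43 facilitators, Slc43a2 encodes LAT4, which lets large neutral amino acids such as leucine leave or enter along their gradient (chr11:75531694-75577575, plus strand). It was 2.55, 2.42, 2.70 and 2.80 FPKM in HFHG and 1.58, 1.97, 1.61 and 1.49 in LG. All HFHG libraries were above all LG libraries (log2 fold change 0.63, SE 0.0954, limma adjusted p = 8.08e-05), opposite to Slc7a5, the exchanger of the same amino acids. Slc43a3, a family member that carries purine nucleobases rather than amino acids, was lower in HFHG (8.39 ± 0.754 against 10.4 ± 0.810, log2 fold change -0.30, limma adjusted p = 0.00245). The opposite-strand gene Slc7a6os was 10.9 ± 0.562 FPKM in HFHG and 9.94 ± 0.664 in LG with overlapping groups (log2 fold change 0.14, limma adjusted p = 0.0496). Its call was kept in only 6 of 18 alternatives. Among the losses were those without each of 6 libraries in turn (limma adjusted p = 0.0531 to 0.154).

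The 19 members under the filter reached at most 0.691 FPKM. For them the exact permutation test (two-sided) was used, in which 4 against 4 libraries allow 70 arrangements and no p-value smaller than 0.0286. In 4 of the 19 the groups did not overlap, against 9.21% of all genes under the filter, and each of the 4 had the exact permutation p = 0.0286. Slc1a1 encodes EAAT3, the glutamate and cysteine carrier of many tissues. It was 0.487, 0.665, 0.691 and 0.439 FPKM in HFHG and 0.0468, 0.0958, 0.257 and 0.165 in LG, from at least 309 and 75 reads in all. The glial glutamate carrier Slc1a3 was 0.197 to 0.246 in HFHG and 0.0843 to 0.166 in LG, and the neutral amino acid carrier Slc38a4 was 0.103 to 0.202 and 0.0706 to 0.102. Slc7a3, which encodes the cationic carrier CAT3, went the other way, at 0.0504 to 0.113 in HFHG and 0.209 to 0.330 in LG.

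The remaining members under the filter did not exceed 0.427 FPKM, and their groups overlapped. The glutamate carrier Slc1a2 (0.208 to 0.323), Slc7a13 (0.128 to 0.370) and Slc3a1 were the highest. Slc1a7, Slc36a2, Slc38a3, Slc38a11, Slc43a1, Slc7a10 and Slc7a14 stayed at or below 0.174 FPKM. The fewest whole reads that fit were at most 8 in a group for Slc36a3, Slc7a9 and Slc7a15. Slc38a5 had at least 1 read in HFHG and was listed at 0 in the LG libraries. Slc38a8 had at least 5 reads in LG and was listed at 0 in HFHG.

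Genes that work with the transporters were described by the same fit, in which 30.8% of all tested genes were lower in HFHG, 34.0% were higher and 64.8% were called in either direction. In the ATF4 arm of the integrated stress response, the pathway that raises several of these carriers when amino acids are short, 22 of 30 tested genes (73.3%) were lower in HFHG, 7 (23.3%) were higher and 1 did not pass, with a median log2 fold change of -0.50. The largest changes were in Cth, the enzyme that makes cysteine from cystathionine (3.47 ± 0.341 FPKM in HFHG, 18.0 ± 1.54 in LG, log2 fold change -2.34), Trib3, a pseudokinase that is both a target and an inhibitor of ATF4 (20.7 against 73.0, -1.81), and Ddit3, the transcription factor CHOP (67.5 against 201, -1.57), each with a limma adjusted p-value of 5.02e-11 or less. The RNA of Atf4 itself, named after its values were seen, was 184 ± 3.54 FPKM in HFHG and 261 ± 6.60 in LG (log2 fold change -0.50, limma adjusted p = 2.40e-09). ATF4 is set mainly by translation, which RNA-seq does not measure.

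Among enzymes that use the carried amino acids, 11 of 24 (45.8%) were lower, 5 (20.8%) were higher and 8 did not pass, with a median of -0.11. Bcat1, which takes the amino group from leucine (5.10 against 12.2 FPKM, log2 fold change -1.24), Gclc, which joins glutamate and cysteine in glutathione synthesis (11.7 against 24.2, -1.04), and Got1, the cytosolic aspartate aminotransferase (31.2 against 57.6, -0.88), had the largest changes. Of the genes by which amino acids act on mTORC1, 14 of 35 were lower, 9 (25.7%) were higher and 12 did not pass, and the median was -0.06 (Sesn2 is counted here and in the ATF4 arm). The share called in either direction, 65.7%, was near that of all tested genes. The largest changes here were in Rragd, a Rag GTPase that anchors mTORC1 to the lysosome (4.84 against 17.0 FPKM, -1.79), Sesn3, a sestrin that inhibits mTORC1 (5.15 against 1.75, 1.501), and Fnip2, a partner of the Rag regulator folliculin (4.22 against 10.9, -1.35). These 6 genes each had a limma adjusted p-value of 8.70e-09 or less.

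Transporters of amino acids and peptides from other families were split, with 7 of 18 (38.9%) lower, 5 (27.8%) higher and 6 not passing (median -0.08), and the 66.7% called lay near the share of all tested genes. The glycine carrier Slc6a9 was 3.95 FPKM in HFHG and 11.7 in LG (log2 fold change -1.55, limma adjusted p = 4.31e-10), close to the change of Slc7a11. The mitochondrial glycine carrier Slc25a38 also fell (2.55 against 5.68 FPKM, -1.13), as did Slc66a1, the lysosomal exporter of cationic amino acids (1.93 against 3.09, -0.65). Of 9 regulators of transporter trafficking and turnover, 4 (44.4%) were higher, 2 (22.2%) were lower and 3 did not pass (median 0.09). Sgk1, a kinase that keeps carriers at the surface by acting on the ubiquitin ligase Nedd4l, was 57.4 FPKM in HFHG and 31.2 in LG (log2 fold change 0.88, limma adjusted p = 1.37e-10). Arl6ip5, which holds back the glutamate carrier EAAT3, was 125 against 76.7 FPKM (0.71), and Arl6ip1 was 73.2 against 89.6 (-0.29).

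**Figure D4:**
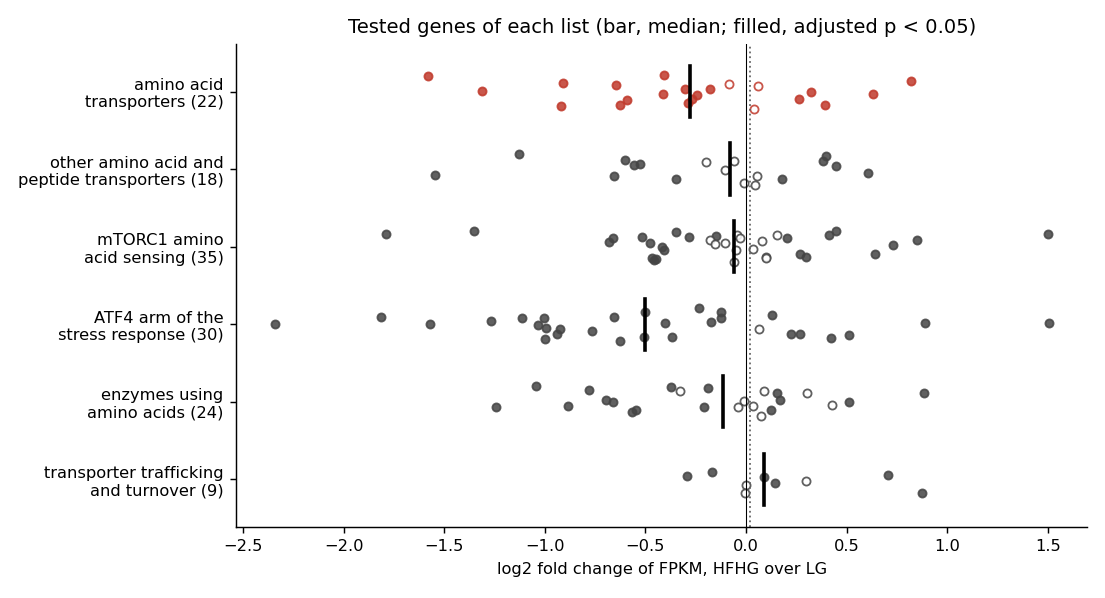
Log2 fold change of FPKM (HFHG over LG, x axis) of each tested gene of the transporter families (red, 22 genes, Slc7a6os left out) and of the 5 other lists (grey), filled where the adjusted p-value was below 0.05, with the median of each list as a bar. The ATF4 arm has the lowest median (-0.50), and the regulators of trafficking have a median above 0 (0.09).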

How the data were processed

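RNA of 8 TSC cultures was sequenced as stranded mRNA libraries. The authors deposited FPKM values for 19301 genes, with replicates kept apart. The submitters' processing notes name HISAT2 2.1.0 and mm10; the counting program, annotation and use of strand are not given in the sources used here. The study's methods call the replicates biological.

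Reads behind the FPKM were recovered as the fewest whole reads that fit all 8 values of a gene (tolerance 0.001 reads; 19300 genes); true numbers may be a multiple. Library totals, recovered from the same values, were 34308108 to 37362725 reads. Reads on the listed genes added up to 34246784 to 37306455 per library.

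Genes with FPKM of at least 0.5 in at least 4 libraries (11710) were tested with limma 3.58.1 (R 4.3.3) on log2(FPKM + 0.1), with an intensity trend, HFHG minus LG, without covariates, and Benjamini-Hochberg adjustment over all of them. Fold changes are on this scale and understate those of low genes. Members under the filter had an exact permutation test. Positions and transcript lengths were from GENCODE M21 (GRCm38), which matched 42 of 42 members by symbol, and promoters from RefSeq (GRCm38.p6), which matched 32.

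All tested members are named. Values per library were given for members with an adjusted p-value below 0.05, mean FPKM of at least 1 and absolute log2 fold change of at least 0.5, and for Slc3a2, Slc7a5, Slc7a11, Slc1a5, Slc1a4, Slc38a1, Slc38a2 and Slc7a1. Of each other list the 3 called genes with the largest change and mean FPKM of at least 1 are named. Members, lists and motifs were chosen with earlier results of these data known. Alternatives were other pseudocounts, filters, scalings and variance fits, a replicate block, voom on the recovered reads and leaving out each library.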

Additional observations from a re-analysis of the deposited data

Results flagged for a closer look

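Over the 23 tested members and both groups, 46 sets of 4 values were examined for 1 library far from the other 3 (Dixon's criterion), and 4 sets had one, where chance gives about 1 in 20. LG replicate 4 stood out in 3 of them, with 47.5 FPKM for Slc38a2 (52.2 to 53.0 in the other LG libraries), 8.62 for Slc7a2 (9.71 to 9.76) and 21.3 for Slc7a5 (19.4 to 19.5). LG replicate 2 stood out for Slc38a1, with 5.33 against 4.94 to 4.98. Without LG replicate 4, the log2 fold changes of Slc38a2, Slc7a2 and Slc7a5 were -0.32, -0.31 and -0.61 and each still passed the adjusted threshold.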

How the results depend on the processing

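Over all alternatives, 12 to 14 members were lower and 4 to 7 higher, and leaving out each library gave 13 to 14 and 5 to 6. Slc3a2 and Slc7a11 were downregulated by more than 2-fold in every alternative, and Slc7a11 ranged from -1.65 to -1.37 on the log2 scale. Without the filter, 1 member (Slc1a1, log2 fold change 1.53, adjusted p = 0.00104) was upregulated by more than 2-fold, since more genes were tested. Of 412 values of single members, 385 kept their direction and side of the threshold, and 16 of 23 members did so throughout. Calls were lost for Slc7a6os, Slc38a9, Slc36a1 (rescaling to the same sum, adjusted p = 0.1003) and Slc7a6 (quantile normalization, 0.0548). The direction of 3 uncalled members turned. With quantile normalization, the log2 fold changes of Slc7a4 and Slc7a7 were -0.12 and -0.057. With each library left out they ranged from -0.012 (without LG replicate 4) to 0.16 for Slc7a4, from -0.0092 (without HFHG replicate 2) to 0.084 for Slc7a7 and from -0.16 to 0.0036 (without LG replicate 2) for Slc38a6. The cause was not tested. Replicate numbers did not pair the samples (same-number correlations -0.0736 to -0.0056), and with a replicate block 6 members were higher and 13 lower, Slc38a9 losing its call (adjusted p = 0.0745). Members with few reads are limited by depth, and a difference not seen there was not detectable.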
